A study of Mus musculus with 6 samples.

Results

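The Egr and Nr4a immediate early genes were followed in droplet single-cell libraries of mouse kidney and mammary tumor. The group held 7 genes, chosen by symbol: the early growth response factors Egr1, Egr2 and Egr3, the orphan nuclear receptors Nr4a1, Nr4a2 and Nr4a3, and Ier2, a small immediate early gene. All 7 were found among the 31053 genes of the deposited matrix of each tissue. There were 6 libraries, 1 for each condition of each tissue. Kidney tissue was C57BL/6, an inbred laboratory strain, at 12 weeks of age (male, per the study's methods). Tumor tissue was from the MMTV-PyMT model (female, 10 weeks of age), in which a viral promoter active in the mammary gland drives the polyoma middle T oncogene and tumors form in that gland. The 60 min control was minced tissue digested for 60 min under agitation, then pipetted, vortexed and strained. The 15 min platform interval held cells eluted from a microfluidic digestion device after 15 min. The 60 min platform interval held the cells collected from the remaining tissue at 60 min, after fresh enzyme had been added. Cells of both intervals then went 1 time through a device that dissociates and filters. All 6 libraries shared type I collagenase digestion, DNase treatment, red blood cell lysis and sorting of cells that excluded a dead-cell stain. Per the study's reporting notes, controls and device conditions used tissue of a shared source mouse, and sequencing was not replicated over mice. Each condition had only 1 library, so differences between conditions are given without any test and none could be checked in a replicate.

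Immediate early genes are switched on without new protein synthesis when a cell meets a growth factor, stress or mechanical stimulus, and their RNAs are short-lived. Egr1, Egr2 and Egr3 are zinc finger transcription factors that bind GC-rich sites, and serum response factor acting through CArG boxes is a known activator of this family. Nr4a1 (Nur77), Nr4a2 (Nurr1) and Nr4a3 (Nor1) are nuclear receptors that act without a known natural ligand and are well-known targets of CREB, which binds the cAMP response element (CRE). Because these genes respond to handling, they are widely read as a sign of what dissociation does to cells. The 15 min interval, the 60 min interval and the 60 min control give their levels under different times and manners of dissociation. Between the 15 min interval and the control, digestion time and device differed together and cannot be told apart. The 60 min interval held only cells left after the 15 min elution, so time and order of release cannot be told apart between the intervals.

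Sequence upstream of the transcription start was read for 4 of the 7 genes, namely Egr2, Nr4a1, Nr4a2 and Nr4a3. It came from the RefSeq promoter table of GRCm38.p6, which shares its coordinates with the mm10 build of the counts. Egr1, Egr3 and Ier2 were not read. The CRE core TGACG was searched on both strands in the 250 bases before each start, and the motifs were chosen after the sequences had been seen. It is shown because all 3 Nr4a genes held it. Nr4a3 and Nr4a2 had the largest ratios at 15 min in whole kidney libraries, but Egr2 (16.1-fold lower) came before Nr4a1 (15.0-fold lower). Of the 32851 windows in the table, 17.8% held the core at least once and 0.137% (45 windows) held it 4 times or more. Nr4a1, Nr4a2 and Nr4a3 each held 4 copies, and the Egr2 window shown held 2. The full palindrome TGACGTCA was present in 1.55% of windows and in none of these 4. A CArG box was present in 1.47% of windows, and Egr2 held 1 in its window while the Nr4a windows held none. Each match is a description of the letters and no binding was measured. Bases in annotated exons were left out, so that 98 of the 250 Nr4a3 bases and 3 of its 4 cores are printed. Capitals mark the CRE core on either strand, and in Egr2 also the CArG box. The Egr2 window ends before 1 of 5 listed start sites. Among the others, the window from base 67535249 held neither motif, and that from base 67537316 held a CArG box and no CRE core. The remaining windows held the motifs of the one shown. In the GENCODE M21 annotation, the Nr4a1 and Egr2 windows lie in introns of longer transcripts of the same gene, and the Nr4a2 and Nr4a3 stretches lie outside annotated genes.
Nr4a1, chr15:101266596-101266845, plus strand: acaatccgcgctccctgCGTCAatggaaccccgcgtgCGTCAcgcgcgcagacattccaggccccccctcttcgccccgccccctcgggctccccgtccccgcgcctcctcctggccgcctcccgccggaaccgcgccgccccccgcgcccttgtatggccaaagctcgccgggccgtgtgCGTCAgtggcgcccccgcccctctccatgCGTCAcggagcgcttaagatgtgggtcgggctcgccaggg
Nr4a2, chr2:57124004-57124253, minus strand: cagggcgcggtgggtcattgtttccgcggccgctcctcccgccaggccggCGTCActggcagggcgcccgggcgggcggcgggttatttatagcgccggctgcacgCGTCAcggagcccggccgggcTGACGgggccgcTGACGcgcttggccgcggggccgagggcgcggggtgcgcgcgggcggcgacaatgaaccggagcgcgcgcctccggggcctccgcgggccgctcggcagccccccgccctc
Nr4a3, chr4:48045055-48045152, plus strand: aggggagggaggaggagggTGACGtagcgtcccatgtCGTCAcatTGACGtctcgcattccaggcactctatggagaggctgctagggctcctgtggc
Egr2, chr10:67537619-67537868, plus strand: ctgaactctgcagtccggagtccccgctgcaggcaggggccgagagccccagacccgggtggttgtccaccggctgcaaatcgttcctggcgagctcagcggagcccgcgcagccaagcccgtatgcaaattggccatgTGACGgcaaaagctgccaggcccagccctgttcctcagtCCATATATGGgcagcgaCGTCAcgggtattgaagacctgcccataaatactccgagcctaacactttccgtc

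The gene limits of the study kept between 5736 and 9936 cells per library, with 33644880 to 61434200 unique molecular identifiers (UMIs, counts of captured RNA molecules). A level is given as CPM, the UMIs of a gene per 1000000 of the total UMIs of the cells summed. Intervals are exact 95% intervals that cover counting error only. A fold counted as a call when it reached 2-fold with at least 20 UMIs in both libraries together. Cells were assigned to a type by a gate on marker genes that held none of the 7 genes, which placed 85.7 to 97.7% of kept cells, and the types are named after their marker lists. The kidney libraries differed in makeup. Proximal tubule cells, which reabsorb filtered solutes, made up 3134 of 5886 cells of the control, 7231 of 8390 of the 15 min interval and 3037 of 9936 of the 60 min interval. Epithelial cells made up 3324 of 5736, 3891 of 5802 and 2480 of 6024 cells of the tumor libraries in that order. The median mitochondrial share of the 15 min kidney cells was 20.4%, against 7.38% in the control and 8.59% at 60 min, and the part of this in the differences was not tested. In whole libraries, fewer cells of a type and less RNA per cell cannot be told apart, so the 7 genes are also given within cell types. Between 16 and 211 cell barcodes were shared by pairs of libraries of a tissue, at most 1.75% of the smaller library.

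In whole kidney libraries, all 7 genes were at least 2-fold lower at 15 min than in the control, where 28.5% of 14632 genes were 2-fold lower and 2.23% were 2-fold higher. Egr1 stood at 306 CPM in the control, 27.1 CPM at 15 min and 781 CPM at 60 min. This made the 15 min level 11.3-fold lower than the control (interval 10.7 to 11.9) and the 60 min level 2.55-fold higher (2.50 to 2.61). Egr2 stood at 20.2, 1.25 and 23.6 CPM and Egr3 at 27.7, 2.41 and 38.8 CPM in the same order. All 3 Egr genes were thus lowest at 15 min, and only the Egr1 level at 60 min was past 2-fold against the control. Among the nuclear receptors, Nr4a1 stood at 108, 7.24 and 203 CPM. Nr4a2 stood at 33.4, 1.06 and 61.2 CPM. Nr4a3 had 25 UMIs in 8390 cells at 15 min, with 31.4, 0.407 and 47.0 CPM in the control and at 15 and 60 min, which was 77.1-fold below the control (51.9 to 120) the largest ratio of the 7. Ier2 had the smallest ratio, at 239, 45.0 and 462 CPM, or 5.30-fold lower at 15 min (5.07 to 5.54). The median gene of the whole kidney library itself lay 0.417 lower on the log2 scale at 15 min and 0.237 higher at 60 min than in the control.

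**Figure D1:**
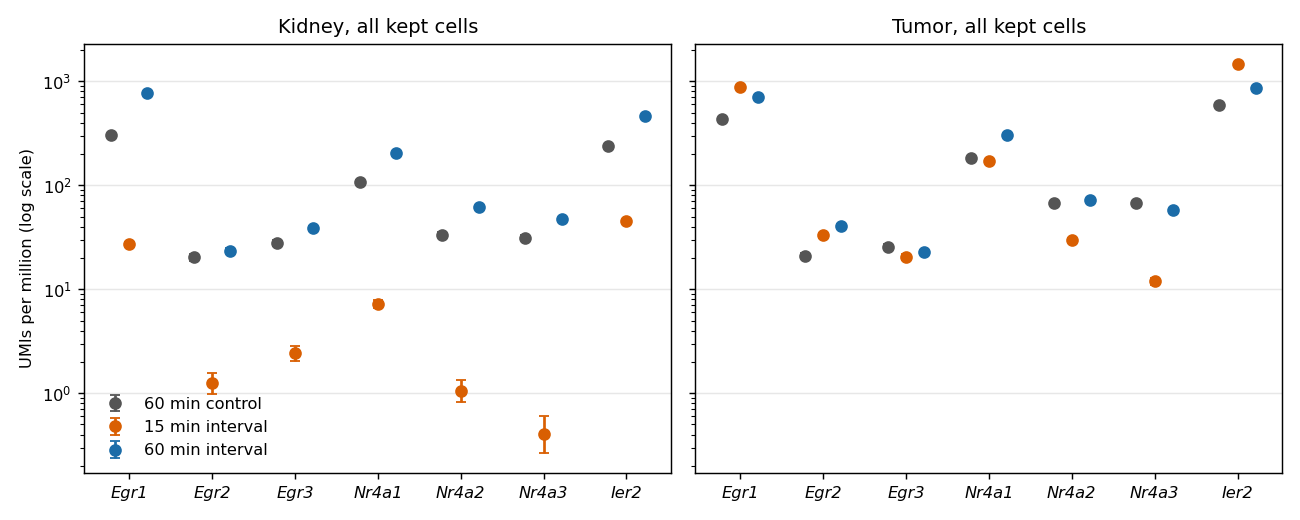
Level of each gene in CPM (vertical axis, log scale) over all kept cells of each library, for kidney (left) and tumor (right), with points for the 60 min control, the 15 min interval and the 60 min interval and bars for exact Poisson 95% intervals. In kidney all 7 genes are lowest at 15 min, while in the tumor Egr1 and Ier2 are highest at 15 min and Nr4a2 and Nr4a3 are lowest.

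The 15 min differences of the whole kidney library from the control were smaller when cell type shares were fixed. Shares were fixed for types with at least 20 cells in every library. All other cells were pooled, and the makeup of that pool could still differ between libraries. When each library was weighted to the cell type shares of the control, Egr1 at 15 min lay 0.94 below the control on the log2 scale, in place of 3.50. Ier2 lay 0.24 below in place of 2.41 and Egr2 0.95 below in place of 4.01. The other 4 genes stayed past 2-fold, at -1.65 for Egr3, -1.67 for Nr4a1, -3.42 for Nr4a2 and -4.68 for Nr4a3. At 60 min the weighting left Egr1 0.78 above the control and no gene past 2-fold.

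Within kidney cell types, 23 of the 36 pairs of gene and cell type with enough UMIs were at least 2-fold lower at 15 min than in the control and 0 were 2-fold higher. Over all genes, 5.37% of 49650 such pairs were lower and 3.11% higher. Nr4a2 was past 2-fold lower in 6 of 6 cell types with enough UMIs, Nr4a1 in 5 of 6 and Nr4a3 in 3 of 4. Egr1 was past 2-fold lower in 3 of 6 types, Egr2 in 2 of 4, Egr3 in 2 of 3 and Ier2 in 2 of 7.

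Egr1 (chromosome 18, 34859823 to 34864984, plus strand) differed by cell type. In proximal tubule cells it stood at 26.9 CPM in the control, 2.60 CPM at 15 min and 70.8 CPM at 60 min, so that the 15 min level was 10.3-fold lower (8.58 to 12.5). In endothelial cells, which line the vessels, it stood at 1464, 424 and 1667 CPM. The 15 min endothelial level was 3.45-fold lower than the control (3.16 to 3.78), while the 60 min level was 1.14-fold higher. Macrophages, the resident phagocytes, went another way, with 839, 939.5 and 1965 CPM of Egr1. Their 15 min level was 1.12-fold the control (1.03 to 1.22) and their 60 min level 2.34-fold the control (2.27 to 2.42). B lymphocytes held 70.6, 78.9 and 109 CPM and T lymphocytes 56.8, 30.6 and 48.3 CPM of Egr1, with no 2-fold difference from the control in either.

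The other Egr genes were concentrated in fewer kidney cell types. Egr2 stood at 92.1, 70.4 and 81.7 CPM in macrophages in the control and at 15 and 60 min, and at 22.7 CPM or lower in the other 6 types with at least 20 cells in every library. Its macrophage levels lay within 1.31-fold of each other. Endothelial Egr2 had 20 UMIs in the control and 0 in 364 cells at 15 min, at least 3.99-fold lower when the 0 was set to a floor of 3 counts in that library. Egr3 (chromosome 14, 70077203 to 70082614, plus strand) had its highest median over the libraries in B lymphocytes, with 74.4 CPM in the control, 115 CPM at 15 min and 188 CPM at 60 min. The 60 min B lymphocyte level was 2.53-fold the control (1.98 to 3.27). In macrophages Egr3 stood at 93.004 CPM in the control, 26.0 CPM at 15 min and 63.6 CPM at 60 min, 3.58-fold lower at 15 min (2.21 to 6.19).

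**Figure D2:**
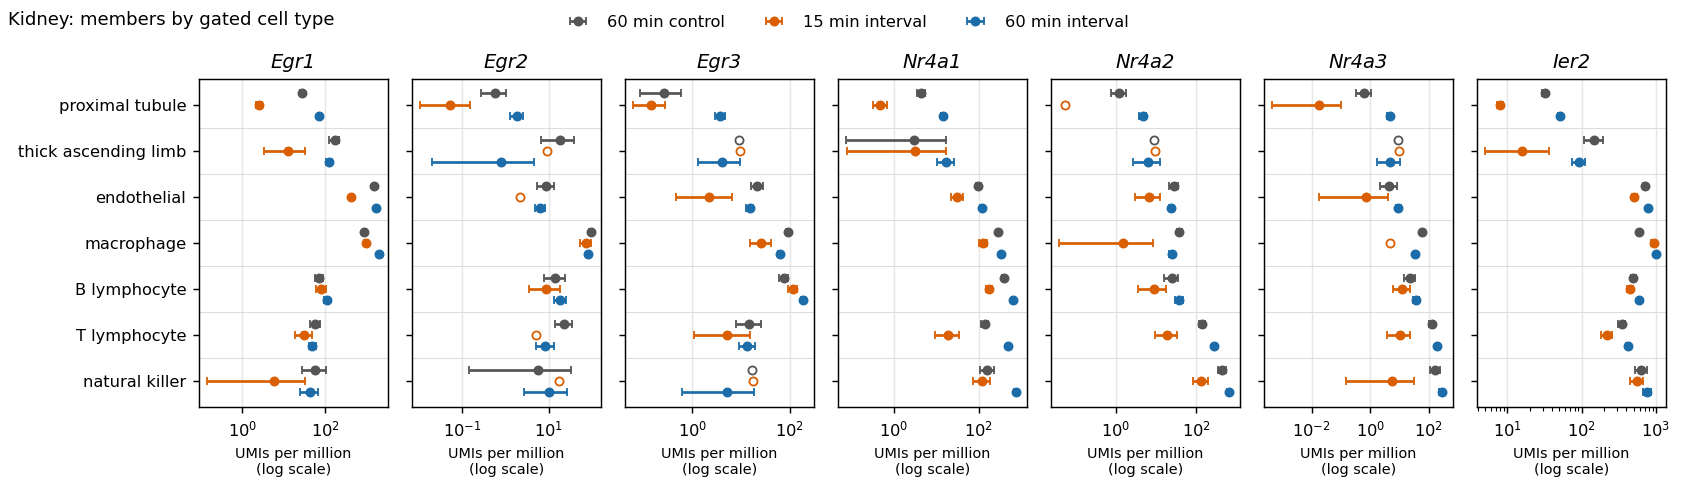
Level of each gene in CPM (horizontal axis, log scale, 1 panel per gene) in the 7 kidney cell types with at least 20 cells in every library, with bars for exact Poisson 95% intervals and open circles for counts of 0, placed at the floor of 3 counts. Nr4a2 and Nr4a3 at 15 min lie left of the control in every type with enough UMIs, while macrophage Egr1 and Ier2 at 15 min do not.

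Among the 7 kidney types with at least 20 cells in every library, the nuclear receptors had their largest levels in lymphocytes. Nr4a1 stood at 396, 173 and 644 CPM in B lymphocytes and at 139, 18.7 and 483 CPM in T lymphocytes, in the control and at 15 and 60 min. It was 2.29-fold lower at 15 min than the control in B lymphocytes (1.89 to 2.80) and 7.40-fold lower in T lymphocytes (3.99 to 15.2). In T lymphocytes the 60 min level was 3.49-fold above the control (2.89 to 4.24), and in natural killer cells, with 159, 121 and 769 CPM, it was 4.84-fold above (3.28 to 7.40). Nr4a2 was led by natural killer cells, at 449, 133 and 669 CPM, and by T lymphocytes, at 141, 18.7 and 283 CPM. Nr4a3 followed the same order, at 165, 5.77 and 281 CPM in natural killer cells and 126, 10.2 and 198 CPM in T lymphocytes. Dendritic cells, with 42 control, 5 and 59 cells, were not ranked, and Nr4a3 was among the 10 leading genes of their gate. They held 492 and 672 CPM of Nr4a1, 394 and 483 CPM of Nr4a2 and 444 and 413 CPM of Nr4a3 in the control and at 60 min. The T lymphocyte level of Nr4a3 was 12.4-fold lower at 15 min (5.50 to 34.4) and that of Nr4a2 7.52-fold lower (4.06 to 15.5).

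Kidney macrophages separated the genes from each other at 15 min. Nr4a3 had 335 UMIs in 801 control cells (61.1 CPM), 0 UMIs in 121 cells at 15 min and 298 UMIs in 1393 cells at 60 min (34.9 CPM). With the 0 set to the floor of 3 counts, the 15 min level was 4.59 CPM, 13.3-fold below the control. Nr4a2 had 210 UMIs in the control, 1 UMI at 15 min and 210 UMIs at 60 min, with levels of 38.3, 1.53 and 24.6 CPM. In the same cells Egr1 was at 1.12-fold and Ier2 at 1.57-fold (1.44 to 1.71) of the control at 15 min. Both Nr4a differences stayed below 0 under each of 9 alternatives, but the size of the Nr4a2 difference moved. With no upper gene limit the Nr4a2 difference was -1.21 on the log2 scale in place of -4.65, while that of Nr4a3 was -3.91 in place of -3.73. In cells thinned to 1000 UMIs both 15 min counts were 0. With the floor of 3 counts in their place, the differences were -0.71 and -1.16 at most, which are bounds and not sizes.

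Ier2 (chromosome 8, 84661331 to 84662852, minus strand), whose product has been tied to transcription and cell movement, was the only gene of the 7 with enough UMIs in all 7 types at 15 min. It stood at 596, 933 and 1012 CPM in macrophages, 711, 510.0 and 786 CPM in endothelial cells and 630.2, 548 and 754 CPM in natural killer cells, in the control and at 15 and 60 min. Proximal tubule cells held 31.8, 7.92 and 51.5 CPM, a 4.01-fold lower level at 15 min than in the control (3.55 to 4.54). Thick ascending limb cells, a salt-reabsorbing segment, held 146 CPM in the control, 15.5 CPM at 15 min on 5 UMIs and 90.8 CPM at 60 min. Outside these tubule types no kidney cell type passed 2-fold for Ier2 at 15 min.

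Against the control, the 60 min kidney interval was higher for 1 of 7 genes in whole libraries, where 10.5% of genes were 2-fold higher and 1.18% lower, and 0 of the 7 were lower. Within cell types, 15 of 63 pairs were 2-fold higher and 2 lower, against 5.32% and 2.16% of 76074 pairs over all genes. Proximal tubule cells gave 6 of the 15, namely every gene but Ier2. In them Egr3 stood at 0.255 CPM in the control and 3.71 CPM at 60 min (14.6-fold, 5.97 to 46.3, on 5 and 73 UMIs), and Nr4a3 at 0.611 and 4.63 CPM (7.58-fold, 4.13 to 15.2). Nr4a1 was 3.31-fold higher there (2.59 to 4.28). The 2 pairs past 2-fold lower were Egr2 in T lymphocytes, with 20 and 18 UMIs, and Nr4a1 in distal convoluted tubule cells, with 18 and 9 UMIs. Between the 2 platform intervals, all 7 genes were higher at 60 min in whole kidney libraries and 32 of 41 pairs were higher within cell types. The shares over all genes were 43.2% higher and 5.13% lower in libraries and 9.01% higher and 3.22% lower in cell types, and 0 of the 7 genes or of their pairs were lower.

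Proximal tubule levels were low, so they were set beside RNA of other cells in the same gate. In proximal tubule cells the 6 endothelial markers summed to 0.166, 0.0837 and 0.408% of their endothelial level for the control, the 15 min and the 60 min library. At 60 min the single markers ranged from 0.300 to 0.536%. Egr1 in proximal tubule cells was at 1.84, 0.614 and 4.25% of its endothelial level in the same order. The 6 macrophage markers were at 0.246, 0.0955 and 0.464% of their macrophage level, and Egr1 at 3.20, 0.277 and 3.60%. The single macrophage markers ranged from 0.203 to 0.823% in the control, 0.0634 to 0.441% at 15 min and 0.366 to 1.08% at 60 min, so the 15 min Egr1 share lay inside their range. The 15 min shares of Nr4a1 (0.368%) and Egr2 (0.0755%) lay inside it too, while those of Egr3 (0.545%) and Ier2 (0.848%) lay above it. Lymphocyte markers were not read here. Egr3 in proximal tubule cells was at 0.274% of its macrophage level in the control and 5.84% at 60 min, and Egr2 at 0.608 and 2.24%, so both control shares lay inside the range of the single markers. The part of free RNA in the difference between libraries was not tested. In cells thinned to 1000 UMIs, 47 of 2855 proximal tubule cells at 60 min held both Egr1 and Ier2, where the product of their shares gives 6.79 cells. Egr1 was found in 148 and Ier2 in 131 of these cells.

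In whole tumor libraries the genes parted. At 15 min 2 of 7 were at least 2-fold above the control and 2 of 7 below, where 3.57% of genes were higher and 3.8% lower. Egr1 stood at 439 CPM in the control, 880 CPM at 15 min and 715 CPM at 60 min, or 2.01-fold higher at 15 min (1.97 to 2.04). Ier2 stood at 597, 1477 and 860 CPM, or 2.47-fold higher at 15 min (2.44 to 2.50). Nr4a3 went the other way, with 66.9, 11.9 and 57.4 CPM, 5.62-fold lower at 15 min (5.17 to 6.12). Nr4a2 stood at 67.4, 29.6 and 71.6 CPM, 2.27-fold lower at 15 min (2.14 to 2.41). The other genes did not pass 2-fold in either direction at 15 min. Egr2 stood at 21.1, 32.9 and 41.0 CPM, Egr3 at 25.7, 20.4 and 22.8 CPM and Nr4a1 at 184, 169.7 and 307 CPM. The median gene lay 0.215 higher than the control at 15 min on the log2 scale, and TMM and median-of-ratios scaling left only Ier2 past 2-fold higher. Over the 8 alternatives the Egr1 difference ranged from 0.79 to 1.03 and that of Ier2 from 1.01 to 1.49. Weighted to the control's cell type shares, Nr4a3 lay at -2.18 and Nr4a2 at -0.92.

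Tumor cell types gave 42 pairs at 15 min, of which 12 were at least 2-fold higher than the control and 9 lower, against 6.19% and 4.4% of 54244 pairs over all genes. Egr1 gave 4 of the 12 higher pairs and Ier2 another 4. Nr4a3 gave 4 of the 9 lower pairs and Nr4a2 2. Egr1 was above the control in 6 of 7 types and Nr4a3 below it in 6 of 6.

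In macrophages of the tumor the genes also parted. Egr1 stood at 223 CPM in 914 control cells, 1639.95 CPM in 929 cells at 15 min and 773 CPM in 1410 cells at 60 min. The 15 min level was 7.37-fold above the control (7.06 to 7.70) and the 60 min level 3.47-fold above it (3.32 to 3.63). Ier2 stood at 380.1, 1801 and 671 CPM, 4.74-fold above the control at 15 min (4.58 to 4.91). In the same cells Nr4a3 stood at 215, 42.4 and 112 CPM, 5.07-fold below the control at 15 min (4.54 to 5.66). Nr4a2 stood at 108, 28.1 and 67.0 CPM, 3.84-fold below (3.35 to 4.42). Nr4a1 did not follow Nr4a2 and Nr4a3, with 267, 391 and 470.3 CPM. Egr2 was at 46.8, 76.0 and 66.4 CPM and Egr3 at 43.4, 50.9 and 30.9 CPM, without a 2-fold difference. None of the 9 alternatives turned the direction of Egr1, Ier2, Nr4a2 or Nr4a3 in these cells.

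The split was also seen as shares of tumor macrophages with a UMI. In macrophages thinned to 1000 UMIs each, Egr1 was found in 14.1% of cells of the control, 63.9% of those at 15 min and 41.8% of those at 60 min, while Nr4a3 was found in 18.7, 4.47 and 7.63%. Unthinned, the shares were 42.5, 84.2 and 78.2% for Egr1 and 65.4, 22.2 and 44.5% for Nr4a3. Thinning left out 14, 11 and 8 shallower cells, and the median depths were 11982, 9365 and 11980.5 UMIs. No cell type was taken to lack these genes. T lymphocytes, which had the lowest median Egr1 level of the 7 tumor types with at least 20 cells in every library, had thinned Egr1 shares of 2.28, 6.90 and 5.15% at median depths of 8036.5, 6228 and 4661 UMIs. At 15 min, 79.4% of thinned macrophages with an Egr1 UMI also held Ier2, against 34.7% of those without. In the control, cells with both Egr1 and Ier2 numbered 65 where the product of shares gives 34.0, and cells with both Egr1 and Nr4a3 27 where it gives 23.7. At 15 min these 2 pairs numbered 466 (product 372) and 38 (product 26.2). At 60 min they numbered 301 (product 209) and 48 (product 44.7).

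**Figure D3:**
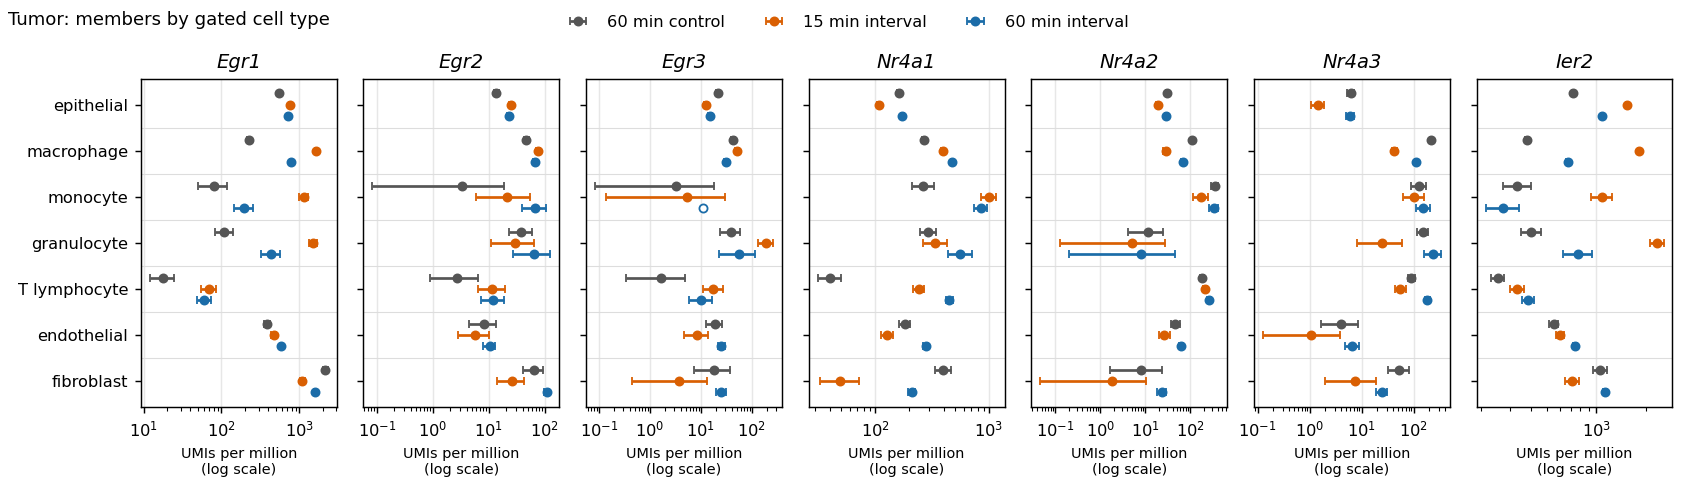
Level of each gene in CPM (horizontal axis, log scale, 1 panel per gene) in the 7 tumor cell types with at least 20 cells in every library, with bars for exact Poisson 95% intervals and open circles for counts of 0 at the floor of 3 counts. Macrophages, monocytes and granulocytes hold more Egr1 and Ier2 at 15 min than in the control, and macrophages and granulocytes hold less Nr4a3.

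Other myeloid cells of the tumor resembled the macrophages in Egr1. Granulocytes, short-lived phagocytes, had 109, 1494 and 430.5 CPM of Egr1 in 230, 92 and 58 cells, 13.7-fold above the control at 15 min (10.3 to 18.5). Their Ier2 stood at 401, 2325 and 773 CPM, 5.79-fold above (4.91 to 6.85), and their Egr3 at 38.2, 189 and 55.8 CPM, 4.95-fold above (2.81 to 8.98). Nr4a3 in granulocytes stood at 147, 24.9 and 231 CPM, 5.91-fold below the control at 15 min (2.43 to 18.7). Granulocytes held few UMIs per cell, with medians of 1969, 1743 and 2009.5. Monocytes, only 30, 22 and 27 cells, had 79.0, 1145 and 194 CPM of Egr1, 14.5-fold above the control at 15 min (9.48 to 23.1), and 263, 990.4 and 844 CPM of Nr4a1. Their Nr4a3 was at 125, 101 and 153 CPM and did not pass 2-fold.

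Tumor epithelial cells, the cancer cell compartment, moved less. Egr1 stood at 551, 749.6 and 708 CPM and Ier2 at 723, 1523 and 1081 CPM in the control and at 15 and 60 min, so that at 15 min only Ier2 passed 2-fold higher (2.11-fold, 2.08 to 2.14). Nr4a3 was scarce, at 6.14, 1.42 and 6.01 CPM, and 4.32-fold below the control at 15 min (3.19 to 5.93). Nr4a1 stood at 161, 107 and 173 CPM, Nr4a2 at 30.4, 18.8 and 29.4 CPM and Egr3 at 21.2, 12.4 and 15.2 CPM. These 3 were each lowest at 15 min without reaching 2-fold. Egr2 stood at 13.6, 24.4 and 23.3 CPM. Epithelial cells with at least 2 basal markers, 90, 138 and 206 cells, had 509.8, 813 and 629 CPM of Egr1 and 678, 1149 and 898 CPM of Ier2, the same order of libraries as the other epithelial cells. In epithelial cells the 6 macrophage markers were at 0.223, 0.185 and 0.195% of their macrophage level and the 6 endothelial markers at 0.147, 0.123 and 0.232% of their endothelial level, while Egr1 was at 248, 45.7 and 91.6% of its macrophage level.

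Fibroblasts and endothelial cells did not pass 2-fold higher for Egr1 at 15 min, while T lymphocytes did, like the myeloid cells. Fibroblasts, the matrix-producing cells, held the largest median Egr1 level of these 7 tumor types, at 2171, 1097 and 1605 CPM in 38, 67 and 294 cells, and their 15 min level was 0.505-fold the control (0.454 to 0.562), just short of 2-fold. Their Nr4a1 stood at 393, 49.4 and 209 CPM, 7.95-fold below the control at 15 min (5.25 to 12.5), and their Nr4a3 at 52.4, 7.33 and 24.3 CPM, 7.16-fold below (2.40 to 28.8, on 20 and 4 UMIs). In endothelial cells Egr1 stood at 385, 469 and 585 CPM and Ier2 at 551, 605 and 741 CPM, and only Egr3, at 18.6, 8.32 and 25.2 CPM, passed 2-fold at 15 min (2.24-fold lower, 1.19 to 4.38). T lymphocytes had 17.5, 68.5 and 59.3 CPM of Egr1, 3.91-fold above the control at 15 min (2.57 to 6.08), and 40.0, 242 and 448 CPM of Nr4a1, 6.05-fold above (4.67 to 7.93). Their Egr3 was 10.6-fold above the control at 15 min (3.15 to 55.2), on 3 control and 21 interval UMIs. Their Nr4a2 (181, 211 and 262 CPM) and Nr4a3 (89.8, 55.3 and 183 CPM) did not pass 2-fold at 15 min. Tumor T lymphocytes thus had Nr4a1 above the control at 15 min where kidney T lymphocytes had it below.

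At 60 min, 0 of 7 genes passed 2-fold against the control in whole tumor libraries in either direction, where 9.09% of genes were higher and 2.72% lower. Within tumor cell types 9 of 45 pairs were higher and 1 lower, against 5.21% and 3.9% of 59227 pairs. The 4 Egr1 pairs were macrophages (3.47-fold), granulocytes (3.95-fold), T lymphocytes (3.38-fold) and monocytes (2.46-fold). Nr4a1 passed 2-fold in T lymphocytes (11.2-fold, 8.80 to 14.5) and monocytes (3.20-fold, 2.47 to 4.19). The lower pair was Nr4a3 in fibroblasts (2.16-fold, 1.25 to 3.56). Between the 2 intervals, Nr4a2 and Nr4a3 were the 2 genes higher at 60 min in whole tumor libraries, by 2.42-fold and 4.82-fold, and 0 were lower, where 9.56% of genes were higher and 5.91% lower. Within types 15 of 49 pairs were higher and 7 lower, against 4.92% and 5.52% of 62535 pairs, and 6 of the 7 lower pairs were Egr1 or Ier2 in macrophages, monocytes and granulocytes.

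**Figure D4:**
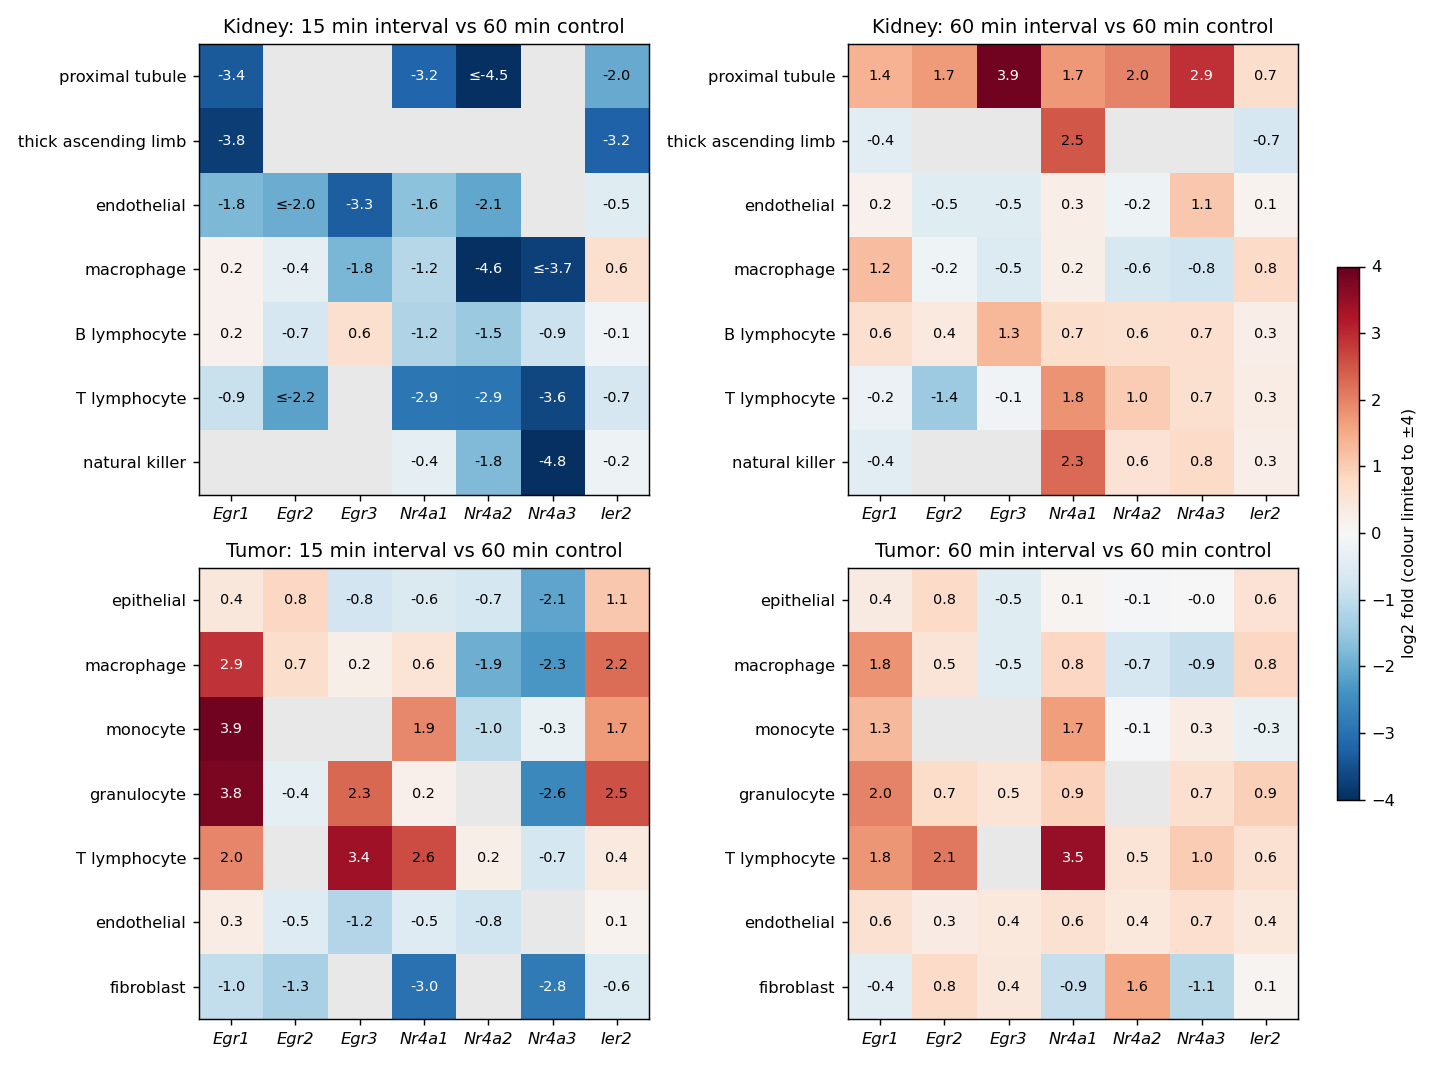
Log2 fold of each gene (columns) in each cell type (rows) for the 15 min interval (left) and the 60 min interval (right) against the 60 min control, in kidney (top) and tumor (bottom), with red for higher, blue for lower and grey for pairs under 20 UMIs. A sign ≤ or ≥ marks a bound from a count of 0. At 15 min the Nr4a3 column is below 0 in all 4 kidney and all 6 tumor types shown, while the Egr1 and Ier2 columns are mostly below 0 in kidney and above 0 in the tumor.

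The 2 tissues can be set side by side at 15 min. Over the tested types, which were not the same in the 2 tissues, the median fold against the control was 0.414 for Egr1 in kidney and 3.91 in the tumor, and 0.717 and 2.11 for Ier2. Endothelial cells, macrophages and T lymphocytes were tested in both. Their Egr1 log2 folds were -1.79, 0.16 and -0.89 in kidney and 0.29, 2.88 and 1.97 in the tumor. Those of Ier2 were -0.48, 0.65 and -0.67 in kidney and 0.13, 2.24 and 0.39 in the tumor. For Nr4a3 it was 0.0781 in kidney and 0.214 in the tumor, and for Nr4a2 0.184 and 0.576. Bounds from a count of 0 entered these medians at the bound. In the tumor, only T lymphocytes crossed 0 for Nr4a3, at 0.05 on the log2 scale under 1 of 9 alternatives. Tissue, sex, strain and age differed together between the kidney and tumor libraries and cannot be told apart, and the difference between the tissues was not tested.

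Across cell types, the order of levels was taken from the median over the 3 libraries of a tissue, for the 7 types of each tissue with at least 20 cells in every library. For Egr1 in kidney, endothelial cells (1464 CPM) and macrophages (939.5 CPM) led, with overlapping ranges over the libraries, and stood clear of thick ascending limb cells (124 CPM). For Egr2 macrophages (81.7 CPM) stood clear of B lymphocytes (14.1 CPM). Kidney Nr4a1 ran from B lymphocytes (396 CPM) through macrophages, natural killer cells, T lymphocytes and endothelial cells with overlapping ranges, and all of these stood clear of proximal tubule cells (4.33 CPM, up to 14.3 CPM). In the tumor the leading type of Egr1 was the fibroblast (1605 CPM) and that of Ier2 the epithelial cell (1081 CPM). Neighbours in both orders overlapped, except that the T lymphocytes at the low end of Egr1 (59.3 CPM) lay below the monocytes (194 CPM) in every library. Tumor Nr4a1 and Nr4a2 were led by monocytes (844 and 329 CPM) and Nr4a3 by granulocytes (147 CPM), monocytes (125 CPM) and macrophages (112 CPM), which overlapped. Tumor dendritic cells (4, 7 and 30 cells) and natural killer cells (13, 14 and 22 cells) were too few to be ranked.

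Likeness between genes was described over profiles of cell type and library with at least 50 cells, 22 in kidney and 18 in the tumor, on log2(CPM + 10). These profiles share libraries and cells and are not independent. Egr1 and Ier2 had a Pearson r of 0.71 in kidney and 0.84 in the tumor. Nr4a2 and Nr4a3 had 0.96 and 0.36. Egr1 and Nr4a2 had 0.03 in kidney and -0.71 in the tumor. Outside the group, the 5 genes most like Egr1 in kidney were Tnip2, Zfhx3, Fosb, Fos and Adam17 (r from 0.90 to 0.92), and in the tumor Fos, Jun, Mcfd2, Aaed1 and Rhob (0.83 to 0.90). Those most like Nr4a1 were Rel, Arl5b, Pde4b, Kpna4 and Emd in kidney (0.91 to 0.93) and Ier5, Nfkbia, Csrnp1, Ppp1r15a and Plk3 in the tumor (0.76 to 0.81).

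Other genes of the early response were read from fixed lists in whole libraries only, whose cell makeup differed, and the part of makeup in these counts was not tested. Of 16 other immediate early transcription factors, 15 had enough UMIs in kidney. All 15 were 2-fold lower at 15 min than in the control and 7 were 2-fold higher at 60 min, beside 28.5% and 10.5% of all genes. Atf3, a stress-induced factor, stood at 466, 17.8 and 1039.9 CPM in the control and at 15 and 60 min. In the tumor 0 of the 16 were higher and 2 lower at 15 min, beside 3.57% and 3.8% of all genes. Those were Fosl1, at 29.1 CPM in the control and 1.55 CPM at 15 min (18.8-fold lower), and Maff, at 128 and 19.8 CPM (6.47-fold lower). Jun and Fos, the partners in AP-1, were the highest of the list in the tumor at 15 min, at 1.79-fold and 1.53-fold of the control. At 60 min Klf2, a flow-responsive factor of endothelial cells, was the 1 higher (3.39-fold) and Fosl1 the 1 lower, beside 9.09% and 2.72% of all genes. Gated endothelial cells numbered 309 of 5736 in the control and 785 of 6024 at 60 min. The median log2 fold of this list at 15 min was -2.91 in kidney and -0.11 in the tumor, beside -0.417 and 0.215 over all genes.

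The 15 genes of feedback and RNA decay, which limit the early response, were read in whole libraries too. In kidney 13 were 2-fold lower at 15 min, led by Socs3 (20.5-fold), Ier3 (16.9-fold) and Nfkbia (10.1-fold), and 3 were higher at 60 min (Spry2, Dusp1 and Zfp36). Over all genes, 28.5% were lower and 10.5% higher in these kidney comparisons. In the tumor 3 were lower at 15 min, Dusp5 (2.80-fold), Errfi1 (2.53-fold) and Dusp2 (2.12-fold), and Dusp1, which dephosphorylates MAP kinases, was higher at 60 min (2.58-fold). The tumor shares over all genes were 3.8% lower at 15 min and 9.09% higher at 60 min. Of 12 upstream serum response and CREB factors, 6 were lower in kidney at 15 min and 1, Elk3, was higher at 60 min, where 28.5% and 10.5% of all genes were. In the tumor only Crem, an inducible CREB-family gene, passed 2-fold, from 79.3 CPM in the control to 29.8 CPM at 15 min (2.66-fold lower). There 3.8% of all genes were 2-fold lower. Of the partners, Nab2, a corepressor of Egr proteins, was 3.15-fold lower in kidney at 15 min, where 28.5% of all genes were 2-fold lower. The other 4 (Nab1, Rxra, Rxrb and Rxrg) did not pass 2-fold there. The 4 partners with enough UMIs in the tumor did not pass 2-fold against the control.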

How the data were processed

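Single cells of 6 libraries were analysed. The authors aligned reads to mm10 with Cell Ranger 3.1.0, whose aggregation was run for each tissue and brings libraries to equal mapped reads per cell. They deposited the resulting UMI counts, whole numbers for each gene in each barcode called a cell. From these counts, cells with 200 to 3000 (kidney) or 4000 (tumor) genes and at most 50% (kidney) or 25% (tumor) mitochondrial UMIs were kept. Doublets were limited only through the upper gene limit. A cell entered a type with at least 3 of that type's markers and at least 2 more than of any other type, thresholds set after the numbers of cells per type had been seen. Types with at least 20 cells in both libraries were compared. UMIs were summed per library and type, intervals were exact (Poisson for levels, conditional binomial for ratios), and code was tested on simulated data. The members, lists and rule for named genes were chosen with earlier results of these data known: all members, the 3 highest and 3 lowest of each list, and the 5 genes most like Egr1 and Nr4a1 among genes with at least 200 UMIs. Alternatives used edgeR 4.0.16 (TMM) and DESeq2 1.42.0 (median of ratios) for scaling only. Python 3.11.15, scipy 1.17.1, leidenalg 0.10.2 and R 4.3.3 were used.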

Additional observations from a re-analysis of the deposited data

Results flagged for a closer look

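In 4 cases a gene passed 2-fold in opposite directions against the control in kidney and tumor. The difference between the tissues was not tested, and with 1 library per condition it has no replicate check. In whole libraries at 15 min, Egr1 had a log2 fold of -3.50 in kidney and 1.00 in the tumor, and Ier2 -2.41 and 1.31. Weighting to the control's cell types gave -0.94 in kidney and 1.01 in the tumor for Egr1, and -0.24 and 1.27 for Ier2, so neither kidney difference then passed 2-fold. In T lymphocytes at 15 min, Nr4a1 had -2.89 in kidney, on 122 control and 11 interval UMIs, and 2.60 in the tumor, on 73 and 293 UMIs. In T lymphocytes at 60 min, Egr2 had -1.44 in kidney, on 20 and 18 UMIs, and 2.12 in the tumor, on 5 and 19 UMIs.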

How the results depend on the processing

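Of 42 whole-library folds, 21 passed 2-fold and kept their direction in all 8 alternatives run on them. Of these, 13 stayed past 2-fold when libraries were weighted to the control's cell types, 19 in cells thinned to 1000 UMIs and 20 or 21 under the others. Among folds in cell types, 125 were past 2-fold, and between 0 and 2 turned direction per alternative. Not all could be read under each alternative. In cells thinned to 1000 UMIs 71 of 81 stayed past 2-fold, and with types from clusters 99 of 107. With no upper gene limit 114 of 125 stayed, and with no cell filter 115. Under the stricter gate 106 of 107 stayed, and under TMM 120 of 122. Nr4a1 in kidney thick ascending limb cells at 60 min, on 1 control UMI, turned to -0.39 with no cell filter, -0.96 with no upper gene limit and -0.18 with types from clusters. Nr4a2 turned to -0.38 between the intervals in thinned kidney macrophages, where the 15 min count of 0 was set to the floor. That value is a lower bound whose sign comes from the floor, and it shows no reversal. In tumor fibroblasts at 60 min, Nr4a2 turned to -0.060 and -0.017 with no cell filter and no upper gene limit. The cause of the Nr4a1 and fibroblast turns was not tested.

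Counts that moved by over 1.5 times are given beside their main count. Shares over all genes were read only at 2-fold under the main settings. The counts under the alternatives, including those at 1.5-fold, thus have no such share beside them. Kidney libraries at 15 min: 4 lower in place of 7 with control cell types. Kidney libraries at 60 min: 2 higher with equal cell weights, 3 thinned, 0 with control cell types and 5 at 1.5-fold, in place of 1. Kidney pairs at 15 min: 1 higher with no cell filter, 1 with no upper gene limit and 2 at 1.5-fold, in place of 0, and 13 lower when thinned, in place of 23. Kidney pairs at 60 min: 7 higher with types from clusters and 23 at 1.5-fold, in place of 15. The 2 lower pairs became 5 with no cell filter, 4 with no upper gene limit, 1 under a stricter gate, 1 with types from clusters, 6 with no minimum of UMIs and 7 at 1.5-fold. Kidney pairs between the intervals: 18 higher when thinned, in place of 32. Tumor libraries at 15 min: 1 higher in place of 2 with mitochondrial UMIs left out, TMM, median of ratios, equal weights and thinning, and 1 lower in place of 2 when thinned and with control cell types. Tumor libraries at 60 min: 1 higher with no cell filter, 1 with no upper gene limit and 3 at 1.5-fold, in place of 0. Tumor libraries between the intervals: 1 higher with control cell types, in place of 2, and 1 lower at 1.5-fold, in place of 0. Tumor pairs at 15 min: 14 lower at 1.5-fold, in place of 9. Tumor pairs at 60 min: 5 higher under a stricter gate and 21 at 1.5-fold, in place of 9, and 0 lower with no cell filter and no upper gene limit, 2 thinned and 4 at 1.5-fold, in place of 1. Tumor pairs between the intervals: 6 higher when thinned and 24 at 1.5-fold, in place of 15. No paired analysis was possible because each condition had 1 library.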
